A study of Mus musculus with 12 samples.

Results

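Binding of Rev-Erbα was examined at the genes of 8 families of developmental transcription factors: the Fox, Sox, Hox, Tbx, Gata, Meis and Pbx genes and the sine oculis homeobox genes, Six6 and its relatives. All rows of the authors' 2 peak lists whose gene symbol began with the family name and a number were taken (for Fox and Hox, with a subclass letter before the number). This gave 81 of the 11227 sites in the list for 4 °C and 10 of the 2183 sites in the list for 29 °C. The sites made up 85 distinct positions of 11740 and were annotated to 42 of 5589 genes. Of these genes 40 are protein-coding, and Sox5os3 and Sox2ot, with 7 sites in the 4 °C list, are noncoding RNA genes.

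The study mapped the genomic sites of Rev-Erbα with ChIP-seq (sequencing of DNA that comes down with a protein), in brown adipose tissue of C57BL/6 mice. HA-RevErba mice, whose Rev-Erbα carries an HA epitope tag, gave 4 libraries after 1 week at 4 °C, a chronic cold challenge, and 4 after 1 week at 29 °C, which is thermoneutral for mice. Wild-type (WT) mice, which have no tag, gave 2 libraries at each temperature. All 12 libraries were pulled down with anti-HA magnetic beads, so the WT libraries measure what the beads collect without the tag. The sources used here do not give the age of the mice or the way the tag was placed in the genome.

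Rev-Erbα, the product of Nr1d1, is a nuclear receptor of the circadian clock that binds DNA at the motif AGGTCA after an A/T-rich stretch and recruits corepressors. Fox factors carry a forkhead domain, Sox factors an HMG box, Hox, Meis, Pbx and sine oculis factors a homeodomain, Tbx factors a T-box and Gata factors zinc fingers. They set the position and the lineage of cells in the embryo, and several stay in use in adult tissues, such as the Foxo factors in insulin signalling and Sox17 and Sox18 in blood vessels. Gene loci of this kind often lie beside long stretches without other genes, where distal regulatory elements are found.

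The deposited values are those of 1 pool for each genotype and temperature, so each is 1 number with no replicate check, and no test between temperatures could be made. The libraries held between 27.0 and 37.3 M (mega) aligned reads, and the pools 63.8 M (HA-RevErbα, 4 °C), 60.8 M (HA-RevErbα, 29 °C), 27.1 M (WT, 4 °C) and 25.1 M (WT, 29 °C) reads. The unit is FPKM, here a read density over a window of 200 bp, which says nothing of how strongly a gene is expressed. A count of 3 reads, the limit that a count of 0 allows, corresponds to 0.235 FPKM in the HA-RevErbα 4 °C pool, 0.247 in the HA-RevErbα 29 °C pool, 0.553 in the WT 4 °C pool and 0.598 in the WT 29 °C pool. Ratios are the HA-RevErbα FPKM at 4 °C over that at 29 °C in the same window, with an exact 95% Clopper-Pearson interval from the reads, given in parentheses after the ratio. Coordinates are of build mm9 unless another is named. The interval covers counting error only, since no molecular identifiers of reads are recorded and the pools hold no spread between libraries. Every window of the 4 °C list holds at least 3 FPKM more than WT at 4 °C, which favours ratios above 1 there, and the 29 °C list favours the other direction.

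At 4 °C, 40 of the 134 protein-coding genes of the 8 families had a site (29.9%, exact 95% interval 22.3 to 38.4%), where 21.8% of all protein-coding genes had one. At 29 °C, 8 of the 134 had a site (5.97%, 2.61 to 11.4%), where 6.3% of all protein-coding genes had one. By family, a 4 °C site was annotated to 18 of 44 Fox genes (40.9%, 26.3 to 56.8%), 7 of 19 protein-coding Sox genes (36.8%, 16.3 to 61.6%) and 5 of 39 Hox genes (12.8%, 4.30 to 27.4%). The intervals of the Fox and Hox shares overlapped only between 26.3 and 27.4%, and the difference between these shares was not tested. Among the smaller families 3 of 13 Tbx, 2 of 6 Gata, 2 of 3 Meis, 1 of 4 Pbx and 2 of 6 sine oculis genes had a site. These intervals treat genes as independent, which genes of 1 cluster are not, since a site is annotated to only 1 of them. In the 4 °C list, 24 of the 42 genes had 1 site, and the mean was 1.93 sites per gene beside 2.06 over all genes of the list. Foxp1 had 7 sites, Sox5os3 6, Foxl1 and Foxn3 5 each and Foxo1 4.

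Over the 81 windows of the 4 °C list the HA-RevErbα pool at 4 °C lay between 3.30 and 34.0 FPKM with a median of 6.28, and at 29 °C between 0.42 and 14.1 with a median of 1.98. The WT medians were 0.93 FPKM at 4 °C and 1.01 at 29 °C. Over all windows of the list the 4 medians were 7.07 and 2.39 FPKM for HA-RevErbα and 1.12 and 1.21 for WT, in the same order of temperatures. The median ratio was 3.10 for the family windows (95% interval of the median from order statistics 2.86 to 3.47) and 3.04 for all windows. That interval and the exact intervals of site shares below treat sites as independent. The 81 sites belong to 42 genes, several with more than 1 site, so the intervals may be too narrow. They hold no spread between libraries. A ratio of at least 2 was reached by 73 of the 81 windows (90.1%), beside 83.4% of all windows. The counting interval lay above 1 in 80 of 81, beside 95.4% of all windows, and the exception was a site of Sox7. In 14 of 81 windows (17.3%) the HA-RevErbα pool at 29 °C was no higher than the WT pool at 29 °C, beside 13.8% of all windows. The ratios of these families were thus close to those of the whole list. When the pools were rescaled so that the WT reads in windows shared by the lists were equal at both temperatures, all ratios fell by a factor of 1.44 (log2 shift -0.53), to a median of 2.16 for the family windows and 2.11 for all. The ratio of at least 2 was then reached by 49 of the 81, beside 55.3% of all windows. The count of intervals above 1 was not redone on this scale. It would be lower than 80, since intervals that began below 1.44, such as that of Hoxa3 (1.02 to 2.12), would no longer lie above 1. In tissue, a change in the share of cells of a type and a change in binding per cell cannot be told apart.

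**Figure D1:**
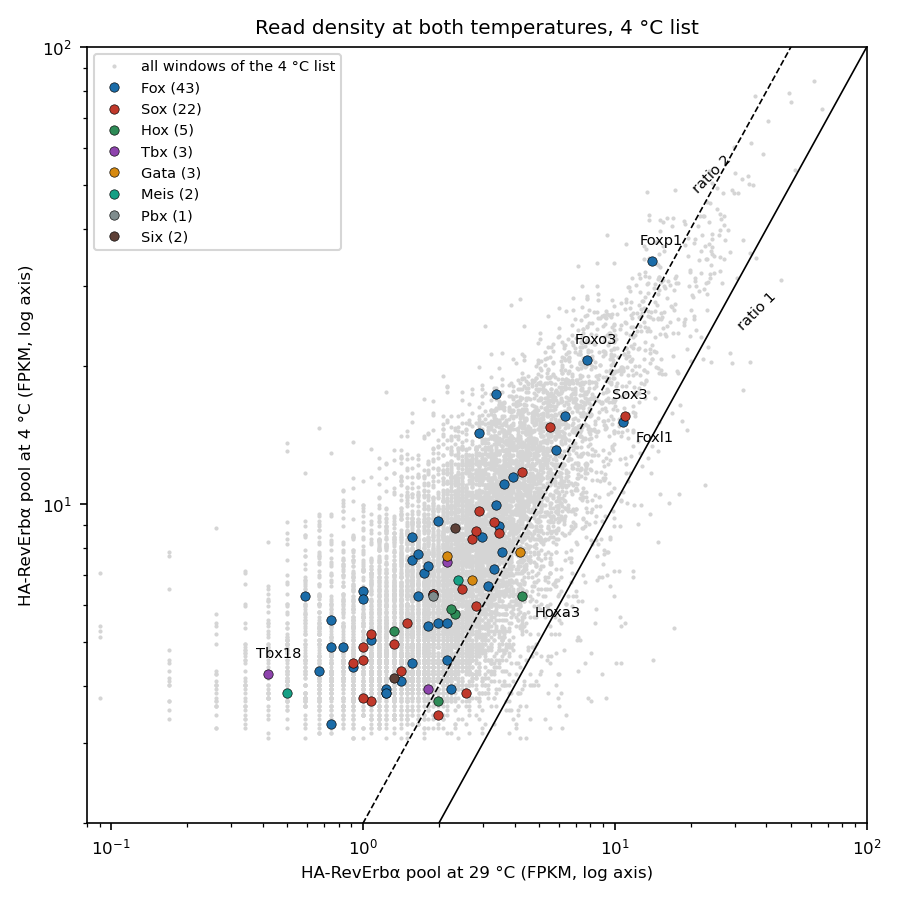
HA-RevErbα read density (FPKM) at 29 °C (x, log axis) and 4 °C (y, log axis) in each window of the 4 °C list, 1 pool per value. Grey points are all 11227 windows, coloured points the 81 family windows with their number per family, and lines mark ratios of 1 and 2; no family window lies below the line of ratio 1, and Foxl1, Sox3 and Hoxa3 come nearest to it.

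The sites lay mostly away from start sites. None of the 81 was annotated to a promoter, where 3.82% of all 4 °C sites were, and 1, at Hoxa3, lay within 1 kb of the annotated start (1.23%, beside 5.06% of all). Within 10 kb lay 11 of 81 (13.6%, exact 95% interval 6.98 to 23.0%, beside 26.1% of all), and within 50 kb 47 (58.0%, beside 66.2%). The median distance was 39.6 kb, beside 27.5 kb over all sites. Intergenic positions held 49 sites (60.5%, beside 44.3%), introns 29 (35.8%, beside 47.8%), transcript ends 3 (3.70%, beside 1.28%) and exons none. Of the Hox sites 4 of 5 lay within 10 kb of the start, beside 2 of 43 Fox sites and 3 of 22 Sox sites. The distance of a site also depends on how far apart genes stand, and Hox genes lie in clusters. The part of gene spacing in these counts was not tested. Of the 29 intronic sites 25 lay in the gene they were annotated to. The other 4 lay in a neighbour: the Foxc1 site in intron 9 of 10 of Gmds, a Sox7 site in intron 6 of 6 of Pinx1, the Hoxa3 site in intron 2 of 2 of the noncoding Hoxaas3 and the Hoxa4 site in intron 2 of 4 of Hoxa3.

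**Figure D2:**
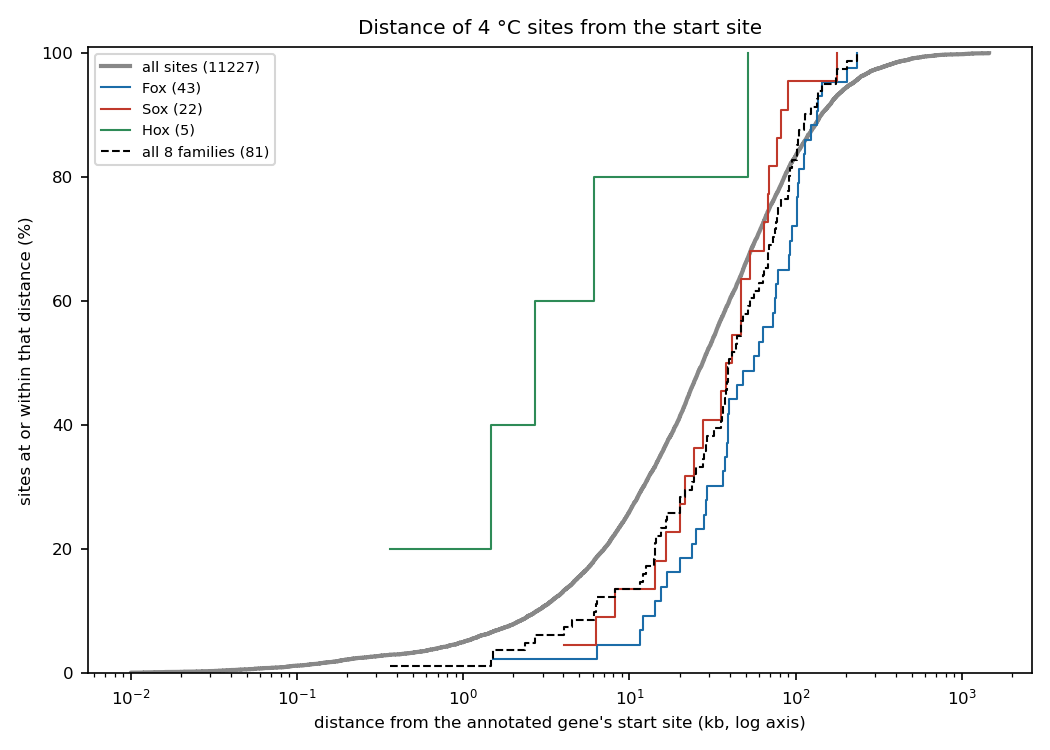
Share of 4 °C sites (y, %) at or within a given distance from the start site of the annotated gene (x, kb, log axis), for all 11227 sites, the 81 family sites and the Fox, Sox and Hox sites. At 10 kb the line for all sites stands at 26.1% and the line for the 81 family sites at 13.6%, and the Hox line, of 5 sites, lies to the left of the others.

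Foxp1, a forkhead repressor that works in dimers, had the most sites and the highest one. The site in intron 4 of 19 (mm9 chr6:99125489-99125689) held 34.0 FPKM in the HA-RevErbα pool at 4 °C, 2.96 in WT at 4 °C, 14.1 in HA-RevErbα at 29 °C and 1.60 in WT at 29 °C, a ratio of 2.41 (2.02 to 2.90). Its score of 67.9 ranked 86 among the 11227 sites, and it was listed at both temperatures. All 7 Foxp1 sites were intronic and they spanned 444 kb. The second highest, in intron 2 (chr6:99329133-99329333), held 17.4, 1.48, 3.38 and 1.21 FPKM in the same order of pools, a ratio of 5.15 (3.69 to 7.39). The third, in intron 1, held 15.5, 0.75, 6.34 and 2.40 FPKM, a ratio of 2.45 (1.88 to 3.23). The other 4 lay between 4.87 and 9.97 FPKM at 4 °C, with ratios of 2.95, 2.98, 6.49 and 7.44. At the site with the ratio of 6.49 the 29 °C value of 0.75 FPKM was below WT at 1.21. The counting interval of the intron 4 site ended below that of the intron 2 site. The intron 4 window was listed at both temperatures and the intron 2 window at 4 °C only. Such a listing by itself favours a higher ratio in the intron 2 window. The signs of the distances alternate along the gene, from 90.9 kb downstream to 92.7 kb upstream, so they do not refer to 1 common start. Foxp2, its relative, had 1 site in intron 3 of 16, where the HA-RevErbα pools held 3.85 and 1.24 FPKM.

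Foxo1 and Foxo3 are kept out of the nucleus by insulin signalling through Akt and act on genes of metabolism and stress resistance. Of the 4 Foxo genes, Foxo1, Foxo3 and Foxo6 had sites, 7 in all, with a median ratio of 4.01, beside 3.04 for all windows. Each of the 7 ratios was above 2, where 83.4% of all windows reached 2. The Foxo3 site in intron 2 of 3 (chr10:41971161-41971361) held 20.6 FPKM at 4 °C and 7.74 at 29 °C in the HA-RevErbα pools and 3.88 and 3.60 in WT, a ratio of 2.67 (2.1 to 3.41). Its WT values were the highest among all family windows at 4 °C and equal highest at 29 °C. A second Foxo3 site in the same intron held 5.03, 0.93, 1.08 and 0.81 FPKM (HA-RevErbα and WT at 4 °C, then at 29 °C), a ratio of 4.66. At Foxo1, which also takes part in fat cell differentiation, the site in intron 1 at 6.34 kb from the start (chr3:52078497-52078697) held 14.3, 2.59, 2.89 and 1.21 FPKM, a ratio of 4.94 (3.44 to 7.34). The other 3 Foxo1 sites, at 44.4, 123.1 and 234.1 kb, had ratios of 2.90, 4.84 and 3.05. At the 123.1 kb site the 29 °C value of 0.91 FPKM was below WT at 1.01. The Foxo6 site held 7.30, 0.93, 1.82 and 2.20 FPKM, so its 29 °C value was below WT.

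Foxn3, a forkhead repressor first known from cell cycle checkpoints, had 4 sites in introns 2 and 3 and 1 that was intergenic. The highest (chr12:100574633-100574833) held 13.1, 2.96, 5.85 and 3.60 FPKM, a ratio of 2.24 (1.69 to 3.0). The 5 ratios ran from 2.19 to 4.06, and at 1 site the 29 °C value of 2.97 FPKM did not exceed the WT value of 3.0. The 2 Foxn2 sites, both more than 100 kb upstream, had ratios of 2.59 and 2.56.

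Foxl1, a factor of the gut mesenchyme, is the last gene of a group in the order Foxf1, Mthfsd, Foxc2 and Foxl1 in the RefSeq gene table. Its 5 sites lay in the intergenic region past Foxl1, 59.9 to 204.9 kb from its start, with 1700018B08Rik and Fbxo31 as the next protein-coding genes. Foxf1 and Foxc2, which has been linked to fat cell metabolism, had no annotated site, and the files do not tell which gene of the group a site acts on. The site at 112.1 kb (chr8:123763632-123763832) held 15.1 FPKM at 4 °C and 10.8 at 29 °C, beside WT values of 1.12 and 0.81. Its ratio of 1.40 (1.12 to 1.77), the lowest of the 81, was 0.98 when WT reads in shared windows were made equal. The 4 sites around it held 3.93 to 6.36 FPKM at 4 °C and 1.24 to 1.98 at 29 °C, with ratios of 2.78 to 3.81. At the 59.9 kb site the 29 °C value of 1.24 FPKM was below WT at 1.80. The counting interval of the 112.1 kb site ended below the intervals of the sites at 73.4 and 135.3 kb, which began at 2.31 and 2.09, and overlapped those of the sites at 59.9 and 204.9 kb. The 112.1 kb site was listed at both temperatures and the 4 around it at 4 °C only, which by itself favours higher ratios in the 4.

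**Figure D3:**
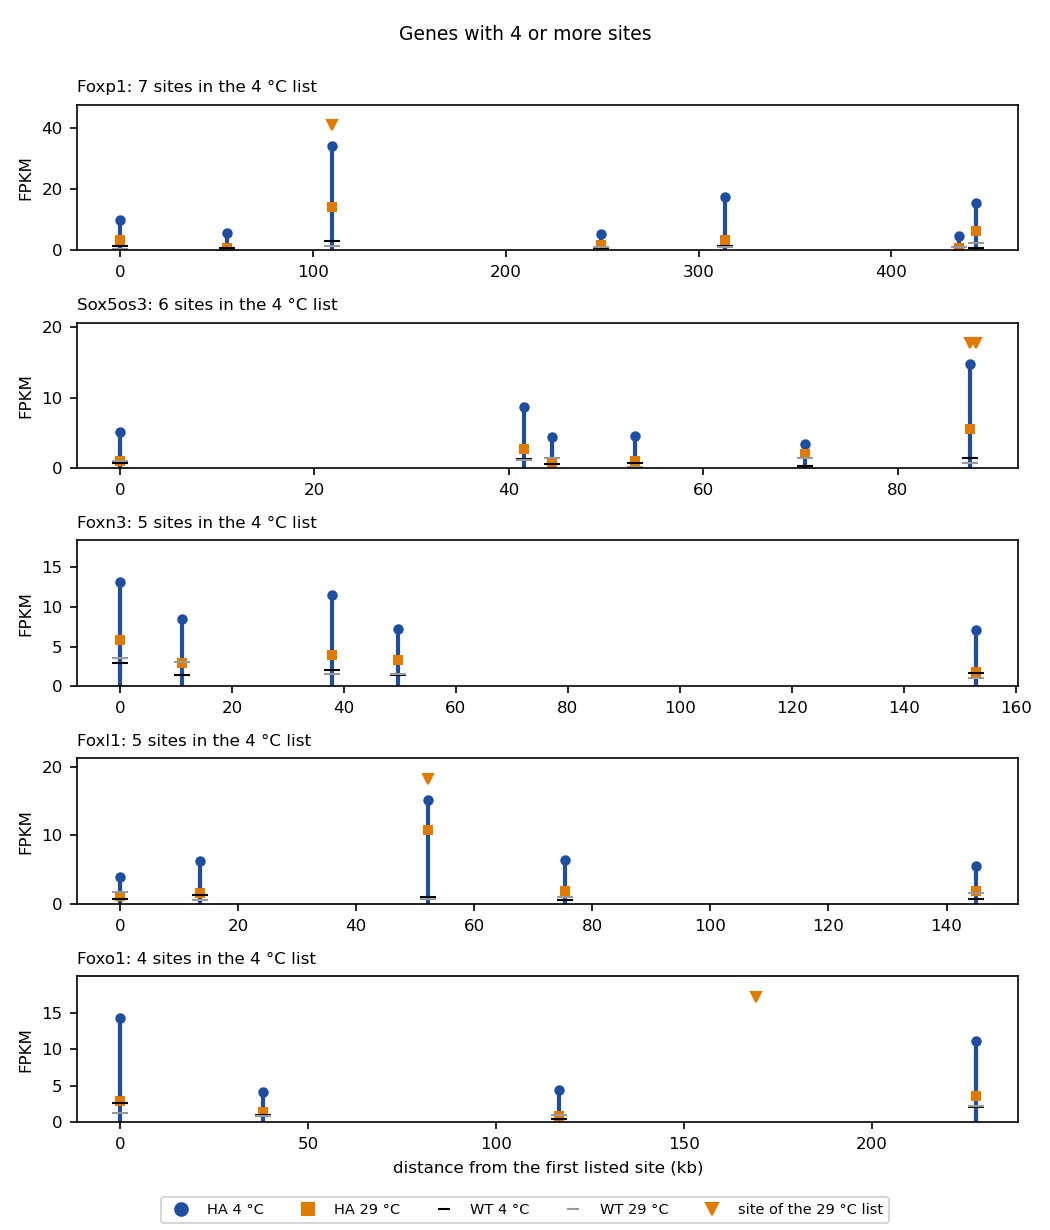
Read density in FPKM (y, linear axis from 0) of the 4 pools at each site of the 5 genes with at least 4 sites in the 4 °C list, by distance from the first listed site (x, kb). Orange triangles mark sites of the 29 °C list; at Foxp1, Foxl1 and Sox5os3 the tallest 4 °C site is also listed at 29 °C, and the Foxo1 site of the 29 °C list stands apart from the 4 sites of the 4 °C list.

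Foxa2, a pioneer factor of liver and endoderm, had the largest ratio. Its 3 sites lay 78.0, 95.2 and 102.6 kb upstream, within 24.8 kb of each other. The middle one (chr2:147967777-147967977) held 6.28 FPKM in HA-RevErbα and 0.19 in WT at 4 °C, and 0.59 in HA-RevErbα and 1.60 in WT at 29 °C. That is 80 reads against 7, a ratio of 10.6 (5.05 to 28.0), or 4.58 with a pseudocount of 1 FPKM, and at 29 °C the value was below WT. The sites on both sides had ratios of 6.44 (3.54 to 13.1) and 4.80 (2.92 to 8.35). Among the other Fox genes Foxk1, a factor that acts on sugar metabolism and autophagy, had a site at 38.4 kb upstream with 4.32, 0.56, 0.67 and 0.01 FPKM, the last being no reads, and 1 in intron 1 with 9.18, 1.85, 1.98 and 1.21 FPKM. Their ratios were 6.45 and 4.64. Foxi1, of the inner ear and the kidney, had 3 sites with ratios of 2.12 to 5.40, and Foxe1, of the thyroid, 2 with 2.85 and 4.40. At the Foxe1 site with the ratio of 2.85 the 29 °C value of 1.57 FPKM was below WT at 1.80. Foxq1 and Foxc1, which stand in 1 group with Foxf2 on chromosome 13, had 1 site each, with ratios of 6.20 and 3.10. Foxd3 (5.87), Foxj2 (2.21) and Foxi2 (1.76) had 1 site each, and at Foxd3 the 29 °C value of 0.83 FPKM was below WT at 1.80. Foxs1, found in pericytes, had a site at its transcript end, 1.5 kb from its start (chr2:152757341-152757541), with 6.60, 1.30, 3.14 and 0.01 FPKM and a ratio of 2.1 (1.42 to 3.18). Over the 43 Fox windows the median ratio was 3.10, beside 3.04 for all windows. All but the Foxl1 site at 112.1 kb and the Foxi2 site reached 2 (95.3%, beside 83.4% of all windows).

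**Figure D4:**
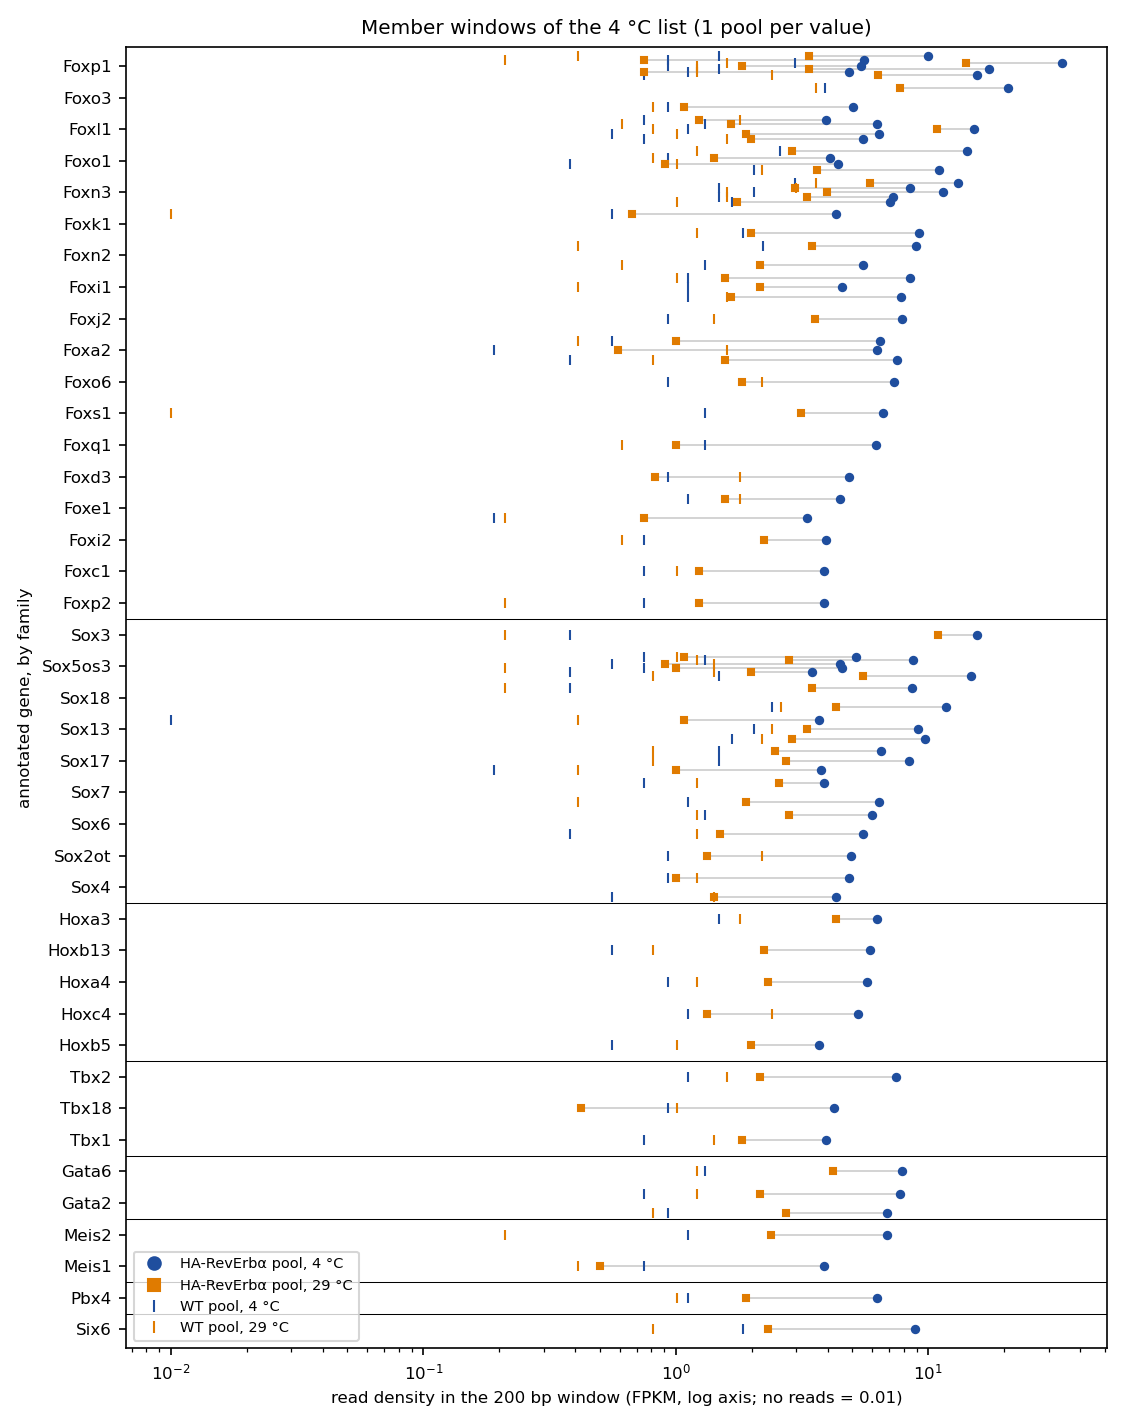
Read density (x, FPKM, log axis) in 80 of the 81 family windows of the 4 °C list by annotated gene (y), grouped by family in the order Fox, Sox, Hox, Tbx, Gata, Meis, Pbx and sine oculis genes. Circles are HA-RevErbα at 4 °C, squares HA-RevErbα at 29 °C and ticks the WT pools, 1 pool per mark; the 4 °C circle lies to the right of the 29 °C square in each window shown.

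Sox genes had 22 sites at 9 genes, with a median ratio of 3.09 and 19 windows at 2 or more (86.4%, beside 83.4% of all windows). Sox3, a factor of the nervous system and pituitary on the X chromosome, had 1 site, 67.9 kb from its start (chrX:58078643-58078843). It held 15.6 FPKM at 4 °C and 10.9 at 29 °C in the HA-RevErbα pools, and 0.38 and 0.21 in WT. This was the highest Sox site at both temperatures, listed in both lists, and its ratio of 1.43 (1.14 to 1.79) was the second lowest of the 81, falling to 0.99 when WT reads in shared windows were made equal. Sox7, Sox17 and Sox18 make up the subgroup that acts in endothelium. They had 7 sites, with 3.77 to 11.8 FPKM at 4 °C, 1.0 to 4.29 at 29 °C and a median ratio of 2.74. The Sox18 site 4.02 kb upstream (chr2:181410263-181410463) held 11.8, 2.41, 4.29 and 2.60 FPKM, a ratio of 2.74 (1.99 to 3.85). The site 8.17 kb downstream held 8.64, 0.38, 3.46 and 0.21 FPKM, a ratio of 2.50 (1.74 to 3.65). The 3 Sox17 sites, 47.0 to 76.9 kb upstream, had ratios of 2.63 to 3.77. The Sox7 site in the last intron of Pinx1 held 3.85, 0.75, 2.56 and 1.21 FPKM, a ratio of 1.5 with an interval of 0.94 to 2.45, the only 1 of the 81 that held 1. The other Sox7 site had a ratio of 3.35.

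Sox5os3 is a noncoding RNA gene named for its place opposite Sox5, a factor of cartilage and nerve cells that itself had no annotated site. Its 6 sites spanned 87.7 kb. The highest, 81.2 kb from its start (chr6:144702477-144702677), held 14.8, 1.48, 5.52 and 0.81 FPKM, a ratio of 2.67 (2.01 to 3.59), and was listed at both temperatures. The other 5 held 3.46 to 8.71 FPKM at 4 °C and 0.91 to 2.81 at 29 °C, with ratios from 1.75 to 4.92. At the site with the ratio of 4.92 the 29 °C value of 0.91 FPKM was below WT at 1.41. Sox13 and Sox6, of the same subgroup as Sox5, had 3 and 2 sites with ratios of 2.76 to 3.43 and 2.12 to 3.69. The Sox13 site in intron 1 had no reads in the WT 4 °C pool. Sox4, of another subgroup, had 2 sites within 1.78 kb with ratios of 4.87 and 3.06, where the 29 °C values of 1.0 and 1.41 FPKM did not exceed WT at 1.21 and 1.41. Sox2ot, which overlaps Sox2, had 1 site with a ratio of 3.72, where the 29 °C value of 1.33 FPKM was below WT at 2.20.

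Hox genes, which lie in 4 clusters and set position along the body axis, had 5 sites, all in the 4 °C list. The Hoxa cluster had 2, at Hoxa3 and Hoxa4, the Hoxb cluster 2, at Hoxb13 and Hoxb5, the Hoxc cluster 1, at Hoxc4, and the 9 Hoxd genes none. The 5 windows held 3.70 to 6.28 FPKM at 4 °C, below the median of all windows. The Hoxa3 site (chr6:52162603-52162803), 363 bp past the annotated start, held 6.28 FPKM in HA-RevErbα and 1.48 in WT at 4 °C and 4.29 and 1.80 at 29 °C. Its ratio of 1.46 (1.02 to 2.12) was the third lowest of the 81, and fell to 1.016 when WT reads in shared windows were made equal. Hoxa4, 6.13 kb from its start, held 5.73, 0.93, 2.31 and 1.21 FPKM, a ratio of 2.48 (1.59 to 3.99). Hoxb13, at its transcript end, held 5.89, 0.56, 2.23 and 0.81 FPKM, a ratio of 2.64 (1.69 to 4.28). The Hoxb5 site lay at the transcript end of Hoxb6 and held 3.70, 0.56, 1.98 and 1.01 FPKM, a ratio of 1.87 (1.12 to 3.19). The Hoxc4 site, 51.6 kb from the start, held 5.26, 1.12, 1.33 and 2.40 FPKM, so that HA-RevErbα was below WT at 29 °C, and its ratio was 3.95 (2.29 to 7.38). The Hox median ratio was 2.48, and 3 of 5 windows reached 2, beside 83.4% of all windows.

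Promoter sequences of RefSeq (build GRCm38.p6, from 250 bases before the start to 50 after) were at hand for 23 of the 42 genes, 34 promoters in all. The motif AGGTCA was searched on both strands. It was in 7 of the 34 (20.6%), of the genes Foxi2, Foxn3, Hoxc4, Sox4, Sox5os3 and Sox6, and in 5340 of all 32851 promoters of the same length (16.3%). The longer TAGGTCA, which contains it, was in 1 of the 34 (2.94%), that of Hoxc4, and in 2.61% of all. Shown here are 3 promoters in lower case with the motif in capitals, TGACCT being AGGTCA on the other strand. Hoxa3 is shown because its site was the only 1 within 1 kb of a start, Hoxc4 for TAGGTCA and Foxi2 because it held the motif 2 times.
Hoxa3 (GRCm38.p6 chr6:52213018-52213317, minus strand): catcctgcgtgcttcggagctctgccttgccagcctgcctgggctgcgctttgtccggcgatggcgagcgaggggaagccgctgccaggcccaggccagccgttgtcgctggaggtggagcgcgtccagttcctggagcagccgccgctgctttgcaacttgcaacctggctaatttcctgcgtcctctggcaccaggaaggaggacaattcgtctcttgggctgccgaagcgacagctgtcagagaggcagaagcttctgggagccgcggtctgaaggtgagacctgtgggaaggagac
Hoxc4 (GRCm38.p6 chr15:103034145-103034444, plus strand): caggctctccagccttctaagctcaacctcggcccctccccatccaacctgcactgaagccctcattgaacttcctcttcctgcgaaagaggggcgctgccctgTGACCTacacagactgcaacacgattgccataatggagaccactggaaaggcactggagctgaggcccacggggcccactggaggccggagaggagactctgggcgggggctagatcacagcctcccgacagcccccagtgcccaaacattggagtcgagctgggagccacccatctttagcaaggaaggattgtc
Foxi2 (GRCm38.p6 chr7:135410117-135410416, plus strand): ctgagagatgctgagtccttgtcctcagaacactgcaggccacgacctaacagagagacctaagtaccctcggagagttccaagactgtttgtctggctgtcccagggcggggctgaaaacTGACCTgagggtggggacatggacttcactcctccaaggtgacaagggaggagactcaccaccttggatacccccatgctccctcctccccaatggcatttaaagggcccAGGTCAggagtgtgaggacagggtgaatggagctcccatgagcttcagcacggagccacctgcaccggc
The printed Hoxa3 promoter holds no AGGTCA, and the Hoxa3 peak, 363 bp past the start, lies beyond the 50 bases it covers after a start. In Hoxc4 the motif begins 146 bases before the start and in Foxi2 129 and 19 bases before it. None of the 81 sites was annotated to a promoter, the Hoxc4 and Foxi2 sites lay 51.6 and 29.0 kb from the start, and peak sequences of the build mm9 were not used here. A match is a description of these letters only.

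The smaller families had 11 sites, and each lay in the 4 °C list. Tbx2, a repressor in heart and limb development, held 7.46, 1.12, 2.15 and 1.60 FPKM, a ratio of 3.47 (2.24 to 5.60). Tbx18, of the epicardium and of mural cells, held 4.24, 0.93, 0.42 and 1.01 FPKM at a site 174.6 kb from its start (chr9:87451420-87451620). Its ratio of 10.1 (4.15 to 33.0), from 54 and 5 reads, was the second largest as deposited, and its 29 °C value was below WT. With a pseudocount of 1 FPKM it was 3.69, below the second highest Foxp1 site at 4.21. Tbx1, of the pharyngeal arches, held 3.93, 0.75, 1.82 and 1.41 FPKM, a ratio of 2.16 (1.29 to 3.76). Gata2, a factor of blood stem cells and of preadipocytes, had a site 32.4 kb upstream with 7.69, 0.75, 2.15 and 1.21 FPKM, giving a ratio of 3.58 (2.31 to 5.77). Its second site, in intron 4 of 5 at 4.49 kb, held 6.83, 0.93, 2.72 and 0.81 FPKM, a ratio of 2.51 (1.67 to 3.88). Gata6, of heart and endoderm, held 7.85, 1.30, 4.20 and 1.21 FPKM at a site 68.4 kb upstream, a ratio of 1.87 (1.32 to 2.67), the only site of the 11 that was also listed at 29 °C.

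Meis and Pbx factors bind DNA together with Hox factors. Meis1 held 3.85, 0.75, 0.50 and 0.41 FPKM in intron 8 of 11 (chr11:18827492-18827692), a ratio of 7.70 (3.33 to 22.2), the third largest as deposited, from 49 and 6 reads. It was 3.23 with a pseudocount of 1 FPKM, below the second highest Foxp1 site at 4.21, and 34.4 with WT subtracted. Meis2, in intron 8 of 13, held 6.83, 1.12, 2.39 and 0.21 FPKM, a ratio of 2.86 (1.86 to 4.52), so the intervals of the 2 Meis ratios overlapped. Pbx4, in intron 1 of 7, held 6.28, 1.12, 1.90 and 1.01 FPKM, a ratio of 3.31 (2.06 to 5.53). Six6, a factor of eye development, held 8.87, 1.85, 2.31 and 0.81 FPKM, a ratio of 3.84 (2.53 to 6.05).

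The 10 sites of the 29 °C list were annotated to 9 genes, and each of these genes also had a site in the 4 °C list. Both lists held 6 of these sites, at Foxl1, Foxp1, Foxs1, Gata6, Sox3 and Sox5os3. These 6 make up 7.41% of the 81 family sites at 4 °C (exact 95% interval 2.77 to 15.4%), beside 14.9% of all 4 °C sites. They make up 6 of 10 at 29 °C (exact 95% interval 26.2 to 87.8%), beside 76.5% of all 29 °C sites. In the windows of the 29 °C list a ratio of at least 2 was reached by 2 of 10, beside 31.5% of all, and the counting interval lay above 1 in 7 of 10, beside 66.8% of all. The windows of shared sites differed by 2 to 43 bp between the lists, so their values differ slightly. In the 29 °C windows the ratios of the shared sites were 2.59 (1.95 to 3.48) at Sox5os3, 2.41 at Foxp1, 1.85 (1.25 to 2.81) at Foxs1, 1.61 (1.14 to 2.29) at Gata6, 1.43 (1.15 to 1.80) at Sox3 and 1.38 (1.10 to 1.73) at Foxl1. The last 2 fell to 0.99 and 0.96 with WT reads in shared windows made equal.

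The other 4 sites were in the 29 °C list only. The Foxk1 site in intron 1 (chr5:142902620-142902820) held 4.09 FPKM in HA-RevErbα and 1.67 in WT at 4 °C, and 4.20 and 0.61 at 29 °C. Its ratio of 0.97 (0.65 to 1.46) was the only value below 1 among the 10 as deposited, and 1.52 kb away a site listed at 4 °C only had a ratio of 4.64 (2.98 to 7.54). The intervals of these neighbouring Foxk1 windows did not overlap, each window having been listed for its signal at its own temperature. The Foxo1 site at 175.5 kb (chr3:52247707-52247907) held 6.13 and 3.70 FPKM at 4 °C and 5.44 and 1.21 at 29 °C. Its ratio was 1.13 (0.80 to 1.59), and it turned below 1 with WT subtracted (0.57) and with WT reads in shared windows made equal (0.78). Its 4 °C value was 1.66 times WT, and the nearest 4 °C site was 52.5 kb away. At the Sox18 site (chr2:181397779-181397979) the values were 6.52 and 0.93 FPKM at 4 °C and 3.88 and 0.61 at 29 °C, and the ratio was 1.68 (1.16 to 2.46). The second Sox5os3 site (chr6:144703049-144703249) held 5.03 and 1.12 FPKM at 4 °C and 3.88 and 0.81 at 29 °C, and the ratio was 1.30 (0.88 to 1.93), or 0.90 with WT reads in shared windows made equal. At both of these the 4 °C value passed the limits that the 4 °C list obeys, at 7.01 and 4.49 times WT. The windows started 295 and 572 bp from the start of a listed 4 °C site. Both windows thus held 4 °C signal beside a listed 4 °C site. In the other direction, 2 of the 75 windows listed at 4 °C only passed the limits of the 29 °C list at 29 °C. One was the Foxn2 site 143.1 kb upstream (3.46 FPKM, WT 0.41) and the other the Sox18 site 8.17 kb downstream (3.46 FPKM, WT 0.21). Of the 81 windows 7 passed these limits (8.64%), beside 13.6% of all windows of the 4 °C list.

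**Figure D5:**
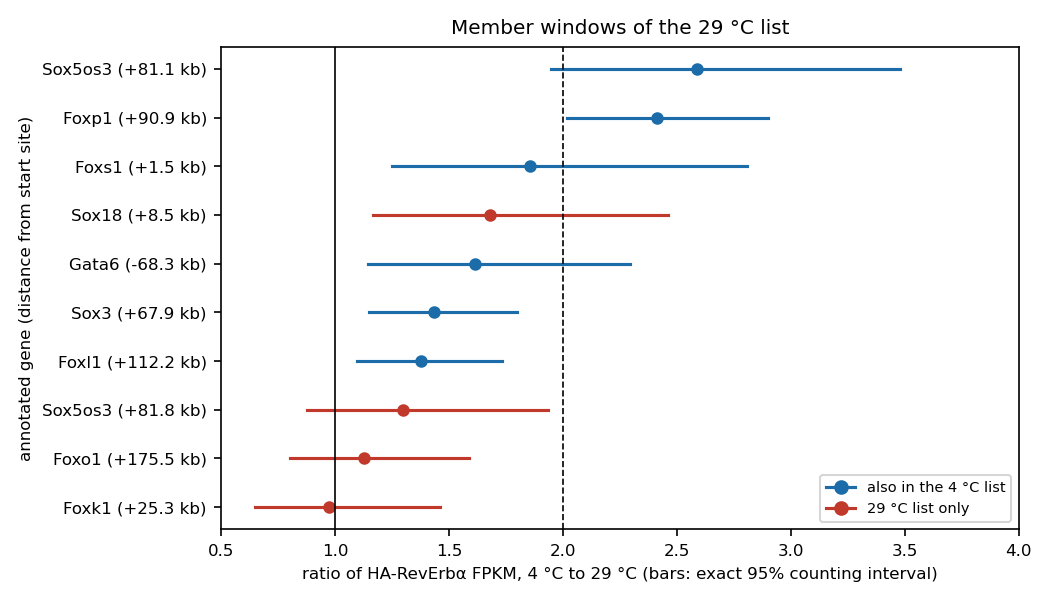
Ratio of HA-RevErbα FPKM at 4 °C to that at 29 °C (x, linear axis; bars are exact 95% counting intervals) in the 10 family windows of the 29 °C list, labelled with the gene and the distance from its start (y). Lines mark ratios of 1 and 2; the Foxk1, Foxo1 and second Sox5os3 windows, all in the 29 °C list only, have intervals that hold 1.

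Beside these families stood a list of 62 other developmental and lineage factors, among them the Irx, Pax, Lhx, Ebf, Twist and Zeb genes. Of these 17 had a 4 °C site (27.4%, beside 21.8% of all protein-coding genes) and 6 a 29 °C site (beside 6.3%). Their 58 sites at 4 °C had a median ratio of 3.31, 51 reached 2 (beside 83.4% of all windows), and none was at a promoter. Tle3 and Ebf1, which act in fat cell differentiation, had sites of up to 17.8 and 16.1 FPKM at 4 °C. Of markers of cell types, 6 of 12 brown adipocyte genes had a 4 °C site, Ucp1, Ppargc1a, Dio2, Elovl3, Adrb3 and Cidea, with 19 sites in all. So had 7 of 7 endothelial genes (26 sites), 3 of 7 white adipocyte genes and 1 of 7 skeletal muscle genes, to be read against the same 21.8%. A site near a gene is no measure of its expression, so the counts do not give the makeup of the tissue, and the part of other cell types in the family sites was not tested.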

How the data were processed

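The 12 ChIP-seq libraries were grouped by their titles into HA-RevErbα and WT at 4 °C and 29 °C. The submitters' processing notes list Bowtie2 2.1.0, HOMER 4.10 and the mouse build mm9 and do not say what each did. Settings of the peak caller were not given in the sources used here. Per the file headers, each peak list was made by the authors on pooled libraries and gives FPKM of 4 pools for each peak. The deposited FPKM are reads per kilobase of window and per M (mega) reads in the pool, plus 0.01. The deposited peak score equals the reads per 10 M reads of the list's own pool within 1%. Each window is 200 bp wide. The lists hold peaks at least 3 FPKM over WT and about 4 times WT, the lowest folds being 3.99 and 3.97. Positions are printed as deposited, since the sources used here do not say whether they count from 0 or 1.

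Reads were recovered from the FPKM steps (100% of values within 0.01 FPKM), which gave pools of 49.8, 43.9, 49.2 and 39.5% of the aligned reads of their libraries (HA-RevErbα and WT at 4 °C, then at 29 °C). The recovery and the ratio intervals were tested on simulated data. Median peaks rested on 90 reads in the 4 °C list and 68 in the 29 °C list. Sites were called shared when they overlapped by at least 1 bp. All 42 genes matched the RefSeq gene table (GRCm38.p6) by ID, which was used for names, gene type and gene order only.

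The genes, lists and settings were chosen with earlier results of these data known. Sites were described in full for genes in the 29 °C list, sites within 1 kb of a start, the 3 highest scores of each family, the 3 largest and 3 smallest ratios and genes with the most sites. The values of 1 gene are counted in the totals and not reported here by name. Alternatives were the pool scaling, a pseudocount, WT subtraction, other folds, distance, overlap and a stricter list. Python 3.11.15, numpy 2.4.6, pandas 2.3.3, scipy 1.17.1 and matplotlib 3.10.9 were used.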

Additional observations from a re-analysis of the deposited data

How the results depend on the processing

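The number of family sites in the 4 °C list fell from 81 to 43 with at least 5 FPKM over WT and to 47 within 50 kb of the start, and that in the 29 °C list from 10 to 3 under each. Within 50 kb lay 66.2% of all 4 °C sites and 63.9% of all 29 °C sites. Shares of all sites past 5 FPKM over WT are not given here, so those counts have no background beside them. The number of family sites in the 4 °C list was 74 without the noncoding genes, and the 6 shared sites numbered 6 with an overlap of at least 100 bp. The count of windows with a ratio of at least 2 was 73 of 81, beside 83.4% of all windows. The count was 78 at a fold of 1.5 and 45 at a fold of 3. Shares of all windows were not computed at folds of 1.5 and 3, so these counts have no background beside them. The median ratio of 3.10 became 2.16 with WT reads over shared windows made equal, 2.46 with a pseudocount of 1 FPKM and 5.76 with WT subtracted, while the median over all windows became 2.11, 2.42 and 4.96. It stayed between 3.05 and 3.15 with pools scaled by aligned reads, WT reads over all 4 °C windows made equal, 1 site a gene, sites within 50 kb, and protein-coding genes only, the last chosen after seeing the data. With WT reads over shared windows made equal, the ratios at Sox3 were 0.990 and 0.995 and those at Foxl1 0.975 and 0.955 in the windows of the 4 °C and the 29 °C list. The sites of the 29 °C list only at Foxo1 and Sox5os3 then had 0.782 and 0.900, and with WT subtracted the Foxo1 site had 0.575. A pseudocount of 1 FPKM took the largest ratios, at Foxa2, Tbx18 and Meis1, to 4.58, 3.69 and 3.23. WT-subtracted ratios could not be computed where the 29 °C value was at or below WT, in 14 of the 81 family windows and 13.8% of all windows. In the medians of 5.76 and 4.96 these windows were kept and counted as larger than any computed ratio. Both medians are therefore no lower than medians over the computable windows alone would be. No paired analysis was possible because the deposited values are pools of libraries, and for the same reason no replicate could be left out. The WT pools limit the background: 3 reads there are 0.553 FPKM at 4 °C and 0.598 at 29 °C, close to many WT values.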
